A study of Mus musculus with 6 samples.

Results

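The Gimap genes encode the GTPases of immunity-associated proteins, a family of GTP-binding proteins found mainly in lymphocytes. The 8 members described here are Gimap1, Gimap3, Gimap4, Gimap5, Gimap6, Gimap7, Gimap8 and Gimap9, taken by gene symbol from a deposited table of 22381 mouse genes, in which each has 1 line. RNA sequencing was done on LSK cells, bone marrow cells without lineage markers that carry Sca-1 and c-Kit and include the blood stem cells and multipotent progenitors. All mice were C57BL/6 and aged 8 to 12 weeks. The labels give 3 samples as Tgif1-/-, lacking the homeodomain repressor Tgif1, and 3 as wild type, with no other allele or treatment. The sources used here do not say how the Tgif1 allele was made or whether samples came from separate or pooled mice.

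GIMAP proteins share a GTP-binding AIG1-type domain and mostly sit on the membranes of organelles. They are known as regulators of lymphocyte survival. Rats and mice without working Gimap5 lose T cells, and in mice Gimap5 is also needed for the survival of blood stem and progenitor cells. In mouse the genes lie side by side on 1 chromosome.

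Values are FPKM, fragments scaled by transcript length and by the mapped total, with 1 value per group and none per sample. No spread between samples could therefore be measured, and the depth is unknown. Each error below is the standard error implied by the Cuffdiff statistic in the authors' deposited table, that is, the error of the authors' model. A gene was called where the Cuffdiff test ran and its deposited q, the p-value adjusted over all tested genes, was at or under 0.05. The label check did not separate the groups: Tgif1 was at 88.6 FPKM where the label is Tgif1-/- and at 71.5 FPKM where it is wild type, and its test failed. Since the value covers the whole gene, it cannot tell whether some deleted exon is gone. The gate genes were present in both groups, with Kit at 193 and 202 FPKM and Ly6a, which encodes Sca-1, at 120 and 88.9 FPKM. In each pair of values the group labelled Tgif1-/- comes first.

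The sequences that bear most on these measurements are those that members share, since reads from a shared stretch cannot be assigned to 1 gene. Gimap3 and Gimap5, which encode closely related proteins of mitochondrial and other intracellular membranes, were identical at 90.3% of 898 aligned bases of their longest open reading frames in GENCODE M21. Their longest identical run, 140 bases, covers bases 175 to 314 of the Gimap3 frame and bases 187 to 326 of the Gimap5 frame.

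Gimap3 and Gimap5 shared run: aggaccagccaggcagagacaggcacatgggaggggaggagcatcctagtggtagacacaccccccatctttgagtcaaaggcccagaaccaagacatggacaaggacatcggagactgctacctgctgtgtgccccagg

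In the other 20 pairs that leave out the longer Gimap8, identity ran from 55.9% to 68.0%, and no identical run was longer than 17 bases. Of all 50-base words in the Gimap3 transcripts, 7.52% also occur in Gimap5 transcripts, and 4.53% of those of Gimap5 occur in Gimap3. Gimap4, Gimap8 and Gimap9 shared no such word with any other annotated gene. Gimap1 shared the most, 35.5% of its words, mainly with its antisense gene Gimap1os, which held 1011 of its 3116 words. Neither Gimap1os nor Gm28053, an annotated gene on the same strand that overlaps all of Gimap7 and Gimap1 and 6448 bases of Gimap5, is analysed here. The sources used here do not say whether counting used strand, so the value of Gimap1 is uncertain with respect to its antisense gene. The sequence that Gimap3 and Gimap5 share, and that Gimap1, Gimap5 and Gimap7 share with Gm28053, lies on the same strand of the transcripts, so strand would not settle it and these values are uncertain too.

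The promoter windows of Gimap4, the member with the largest difference between the groups, and Gimap6, the member with the highest level, are shown because Tgif1 binds DNA at sites with the core TGTCA. Both are from RefSeq on GRCm38.p6, run from 250 bases before to 50 bases after the annotated start, and carry matches to TGTCA on either strand in capitals. The Gimap4 window lies at chr6:48684328-48684627 on the plus strand and the Gimap6 window at chr6:48708195-48708494 on the minus strand.

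Gimap4 promoter: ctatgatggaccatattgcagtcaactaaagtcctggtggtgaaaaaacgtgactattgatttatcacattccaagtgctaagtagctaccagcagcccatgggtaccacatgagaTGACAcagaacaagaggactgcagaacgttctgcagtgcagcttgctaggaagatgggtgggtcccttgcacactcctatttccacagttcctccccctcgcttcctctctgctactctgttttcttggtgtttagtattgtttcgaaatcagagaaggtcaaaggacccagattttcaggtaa

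Gimap6 promoter: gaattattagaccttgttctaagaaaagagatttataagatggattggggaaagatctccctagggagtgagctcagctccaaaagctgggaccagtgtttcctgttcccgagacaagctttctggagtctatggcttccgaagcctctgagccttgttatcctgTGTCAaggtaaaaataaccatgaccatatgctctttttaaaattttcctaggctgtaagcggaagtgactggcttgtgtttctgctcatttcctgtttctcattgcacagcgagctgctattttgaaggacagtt

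The single match began at position -134 from the start in Gimap4 and at -85 in Gimap6. All 8 members were found in the RefSeq table, Gimap8 with 2 starts, which gave 9 windows. TGTCA occurred in windows of 6 members, Gimap3 and Gimap8 being without it, and in 45.4% of all 32851 windows of that length. The RUNX-type letters TGTGGT occurred in 3 members (Gimap1, Gimap4 and Gimap7) and in 16.8% of all windows. The ETS-type letters GGAAG occurred in all 8 members and in 71.4% of all windows, and the Ikaros-type letters TGGGAA, which can overlap GGAAG, occurred in Gimap3 alone and in 25.6% of all windows. Both strands were searched for each. These matches describe the letters of the windows and not binding.

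LSK cells of both groups held RNA of the family at levels from under 1 FPKM to over 50 FPKM. Gimap6, which works with Gabarapl2 in autophagy, was the most abundant at 55.4 and 64.0 FPKM, above 90.0% of the table's genes in the wild-type group. Gimap1, which mature T and B cells need, followed at 46.9 and 49.3 FPKM. Together the pair made up 69.0% and 67.1% of the family's summed FPKM. Gimap9 stood at 18.7 and 21.2 FPKM. Gimap5, the survival factor named above, stood at 12.8 and 15.3 FPKM. These were the members of middle level, at percentiles 74.8 and 69.9 of the table's genes in the wild-type group. Gimap7, a GTPase that can activate the GTP hydrolysis of other members, stood at 6.69 and 8.17 FPKM. Gimap4, which promotes the death of T cells, stood at 3.34 and 5.89 FPKM. Gimap8, the longest member with several GTP-binding domains, stood at 3.69 and 4.01 FPKM. Gimap3 was the lowest at 0.839 and 0.880 FPKM, the only member under 1 FPKM.

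**Figure D1:**
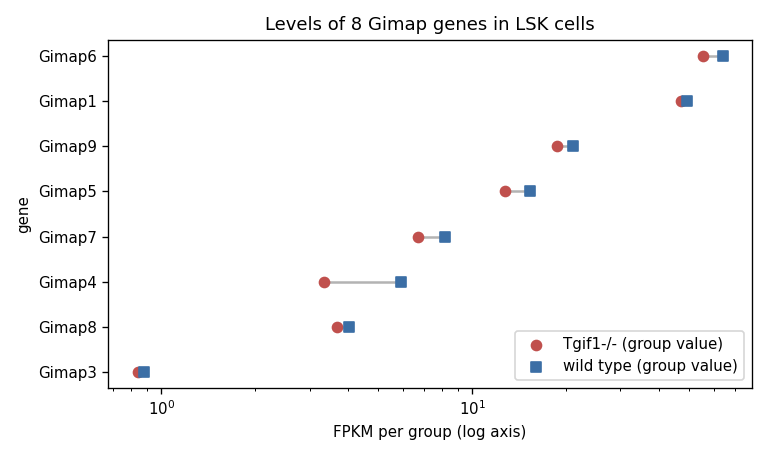
Level of each Gimap gene as FPKM per group on a log axis, with circles for the group labelled Tgif1-/- and squares for the wild-type group. Each symbol is 1 deposited group value without an error, and every circle lies to the left of its square, with the widest gap at Gimap4 (3.34 and 5.89 FPKM).

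The highest and lowest members differed 72.7-fold in the wild-type group and 66.1-fold in the group labelled Tgif1-/-. The order of levels was the same in both groups for 6 members. The exceptions were Gimap4 and Gimap8, whose places were exchanged. The table gives no spread for a level, so whether neighbours in this order differ beyond their spread was not tested. FPKM depends on the transcript length assumed. For Gimap3 the deposited position spans 1431 bases where GENCODE M21 lists 6388, while Gimap9 has 2986 bases in both.

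No Gimap gene was called different between the groups by Cuffdiff. Of the 8 members 7 were tested, none had a deposited q at or under 0.05 (0.662% of all 10730 tested genes did), and 1, Gimap4, had an unadjusted p under 0.05 (5.41% of tested genes did, 3.55% counting lower values only). With each standard error raised to at least the median of genes at like expression, a more cautious error, none of the 7 was called either (0.197% of tested genes were). Raised errors only make a call harder, so this count followed from the one before. All 8 members had the lower value in the group labelled Tgif1-/-, a direction shared by 57.4% of tested genes. In RNA from a whole cell fraction, fewer cells of a type and less RNA per cell cannot be told apart.

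Gimap4 differed most, with a log2 ratio of -0.82, an implied standard error of 0.27 and a 95% interval from -1.34 to -0.30. Its level in the group labelled Tgif1-/- was thus 0.567 times that in the wild-type group, with an interval from 0.395 to 0.813. The authors' deposited table gives it p = 0.00201 and q = 0.176 in the Cuffdiff test, and 122 of the tested genes had a smaller p. The difference therefore did not pass the adjustment over all genes, although the interval for this gene alone leaves out 0.

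The other 6 tested members had smaller ratios, and all 6 intervals held 0. Gimap7 had a log2 ratio of -0.29, with an interval from -0.997 to 0.42. Gimap5 had a log2 ratio of -0.26, with an interval from -0.73 to 0.21. These limits mean that a fall of Gimap5 to 0.602 times, or a rise to 1.16 times, the wild-type level lies inside the interval. For Gimap6 the log2 ratio was -0.21 and the interval, the narrowest of the family, ran from -0.54 to 0.13. For Gimap9 the log2 ratio was -0.18 and the interval ran from -0.64 to 0.29. Among members above 1 FPKM the abundant Gimap1 was nearest to equality, at -0.07 with an interval from -0.49 to 0.35. Gimap3 also had a log2 ratio of -0.07, but at its low level the interval ran from -1.48 to 1.34, or from 0.359 to 2.53 times the wild-type level. The test of Gimap8 failed in the authors' deposited table, so its log2 ratio of -0.12 has no error. In the authors' deposited table the q of each of these 6 tested members was 1.00.

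**Figure D2:**
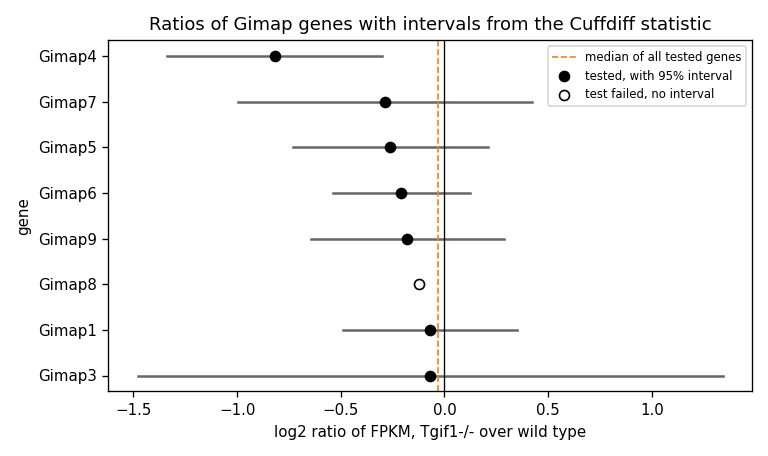
Log2 ratio of FPKM, the group labelled Tgif1-/- over the wild-type group, for the 8 Gimap genes, with lines for the 95% interval implied by the Cuffdiff statistic. Gimap4 at -0.82 is the one interval that leaves out 0; the open circle marks Gimap8, whose test failed, and the dashed line is the median of tested genes at -0.03.

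The median log2 ratio was -0.19 over the 8 members and -0.21 over the 7 tested ones. Over the 10683 tested genes with both values above 0 it was -0.03. The summed FPKM of the family was 148 in the group labelled Tgif1-/- and 169 in the wild-type group, a log2 ratio of -0.18. Gimap6 alone gave 8.56 FPKM of that difference, and Gimap4, at a far lower level, gave 2.55 FPKM. Gimap5 and Gimap9 gave 2.53 and 2.48 FPKM, and Gimap1 gave 2.32 FPKM. The sum thus follows its abundant members, and the share of Gimap4 in it was 2.25% and 3.49%. No chance test goes with these sums and medians.

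**Figure D3:**
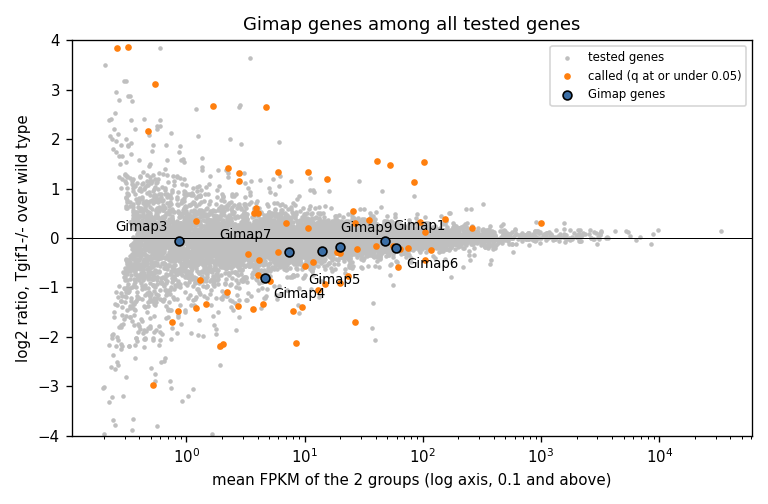
Log2 ratio against mean FPKM on a log axis for tested genes present in both groups and averaging 0.1 FPKM or more, with called genes in orange and the 7 tested Gimap genes in blue. Gimap4 lies below the other members at -0.82; 10 genes lie beyond the axis limit of 4 and are not drawn.

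The family lies within 119 kb of chromosome 6, at positions 48597233 to 48716518 of the table. These positions are not GRCm38, and no source used here names their mouse build. From one end to the other the order is Gimap8, Gimap9, Gimap4, Gimap6, then a block of 35.6 kb that the table gives as the single position of Gimap5, Gimap7 and Gimap1, then Gimap3. Members of that block may have been quantified together. Gimap4 and its direct neighbours Gimap9 and Gimap6 have positions of their own, and their ratios were -0.82, -0.18 and -0.21 on the log2 scale.

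Genes around the cluster were not called either. Within 500 kb of it the table lists 21 other genes, of which 10 were tested, 3 failed and 8 had too few reads. None of the 10 had an unadjusted p under 0.05, 6 were lower and 4 higher in the group labelled Tgif1-/-, and their median log2 ratio was -0.24. On the side of Gimap8 stood Lrrc61 at 23.4 and 29.1 FPKM, the chemerin gene Rarres2 at 0.462 and 0.574 FPKM, Gm5111 at 15.0 and 18.6 FPKM and the zinc finger gene Zfp775 at 1.25 and 1.40 FPKM. Farther out, Krba1 stood at 4.57 and 5.81 FPKM and Zfp467 at 11.7 and 11.4 FPKM. These 6 genes ran from -0.35 to 0.03 on the log2 scale, a range that overlaps that of all Gimap genes but Gimap4. On the side of Gimap3 stood Gm7932 at 1.26 and 1.19 FPKM, Igf2bp3, an RNA-binding protein of fetal cells, at 1.31 and 1.65 FPKM, 2410003K15Rik at 46.7 and 45.0 FPKM and the splicing factor Tra2a at 67.4 and 59.8 FPKM. The tests of the abundant membrane protein genes Tmem176b, at 262 and 290 FPKM, and Tmem176a, at 179 and 174 FPKM, failed, as did that of Repin1 at 26.2 and 27.2 FPKM. The 8 with too few reads were Sspo, Atp6v0e2, Abp1, 1600015I10Rik, Gm10242, Doxl2, Svs1 and Gpnmb, each under 1 FPKM in both groups.

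**Figure D4:**
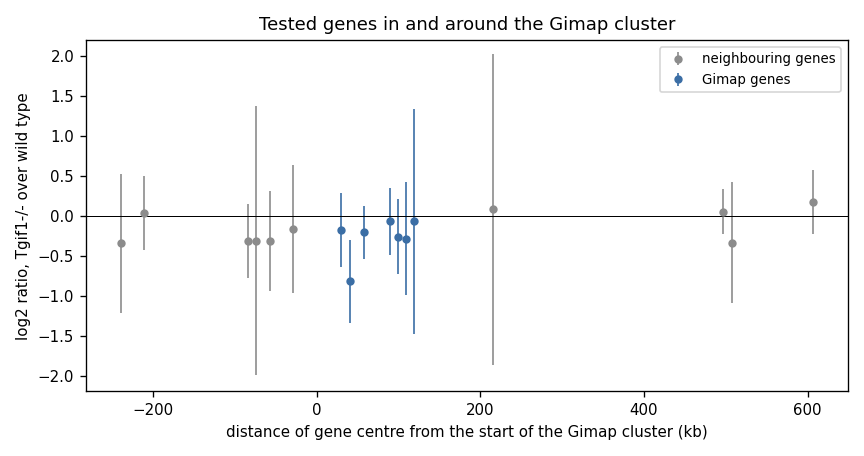
Log2 ratio with its implied 95% interval for the tested genes in the Gimap cluster (blue) and within 500 kb of it (grey), by distance of the gene's centre from the start of the cluster in kb. Genes that share 1 listed position are drawn side by side. These are the 3 genes of the shared block, Lrrc61 with Rarres2, and Igf2bp3 with 2410003K15Rik. Gimap4 at -0.82 has the lowest ratio of the genes drawn.

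Partners and pathways of the family were set beside it. Of 23 tested genes of lymphocyte survival signalling, none was called by Cuffdiff, 13 were higher and 10 lower, and the median log2 ratio was 0.05. At an unadjusted p under 0.05 there were 2 of the 23, 1 on each side of equality, beside 5.41% of all tested genes, so the count is no result about the list. Bcl2l1, which encodes the survival protein Bcl-xL, was at 9.28 and 6.19 FPKM with p = 0.00483 and q = 0.305 by Cuffdiff in the authors' deposited table. The receptor gene Il7r, whose product keeps early lymphocytes alive, was at 8.84 and 13.6 FPKM with p = 0.014 and q = 0.522 by Cuffdiff in the authors' deposited table. Mcl1, a survival protein that Gimap5 is known to bind, was at 78.7 and 76.5 FPKM, and Gsk3b, a kinase that Gimap5 restrains in T cells, was at 88.7 and 95.3 FPKM. Of 8 tested LC3 and GABARAP autophagy genes, none was called by Cuffdiff and none had an unadjusted p under 0.05, with a median of -0.05. Gabarapl2, the partner of Gimap6, was at 24.0 and 24.7 FPKM. The smallest p-values of that list belonged to the autophagy genes Ulk1, at 21.2 and 24.0 FPKM, and Becn1, at 38.6 and 42.9 FPKM. Mcl1, Gsk3b and Gabarapl2 were picked for their link to members after their values were seen.

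Another family of immune GTPases, the interferon-inducible IRG, GBP and Mx proteins, had 0 of 11 tested genes called by Cuffdiff, 4 higher and 7 lower, with a median of -0.14. At an unadjusted p under 0.05 there was 1, Gbp8 at 1.57 and 2.36 FPKM, beside 5.41% of all tested genes. Next came Iigp1 at 7.77 and 6.11 FPKM, on the other side of equality. The tests of another 7 of these genes failed, and all 7 had the higher value in the group labelled Tgif1-/-. Over all 19 genes of the list, tested or not, 11 were higher and 8 lower, and the summed FPKM was 543 and 458, so the tested genes and the whole list lean opposite ways. Whether the Gimap genes differ from this family was not tested.

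Markers of cell types known to use Gimap genes were looked at next. Among B cell markers 12 were tested, 10 stood lower and Cuffdiff called 4 of them lower, against 0.373% of all tested genes. These were Igll1 (12.7 and 40.9 FPKM), Blnk (4.24 and 11.8 FPKM), Ebf1 (3.13 and 13.7 FPKM) and Cd79a (5.16 and 13.7 FPKM), all parts of early B cell identity or receptor signalling. The summed FPKM of the 15 B cell markers was 66.2 and 137. The median log2 ratio of this list was -1.33, while 7 of the 8 Gimap genes lay between -0.29 and -0.07. The part of B lineage cells in the Gimap values was not tested.

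T cell markers held no call by Cuffdiff among 13 tested, of which 6 were higher and 7 lower, with a median of -0.05. At an unadjusted p under 0.05 there were 2, 1 on each side of equality, beside 5.41% of all tested genes. Cd6, a surface receptor of T cells and one of these, was at 0.490 and 0.891 FPKM. The defining T cell receptor gene Cd3e was at 0.134 and 0.250 FPKM and Cd8a at 0.254 and 0.189 FPKM. Cd3g was listed at 0 and 0.677 FPKM. Among 20 T cell markers listed, 11 were under 1 FPKM in both groups, while their summed FPKM was 79.4 and 88.6. Cd4, at 3.21 and 2.58 FPKM, is also found on cells other than T cells. NK cell and innate lymphoid markers held no call by Cuffdiff among 10 tested, of which 7 were higher and 3 lower, with a median of 0.13. Over all 14 of these markers, tested or not, 11 were higher and 3 lower. Those at an unadjusted p under 0.05 numbered 2, beside 5.41% of all tested genes. They were Klrk1 at 1.39 and 0.381 FPKM and Klrd1 at 3.12 and 5.27 FPKM. The defining NK cell receptor gene Ncr1 was at 0.969 and 0.401 FPKM. Endothelial cells also carry Gimap RNA, and the 12 endothelial markers summed to 278 and 302 FPKM. Their defining cadherin gene Cdh5 was at 0.0413 and 0.0980 FPKM and 3 of the 12 were under 1 FPKM in both groups, while others, such as Emcn at 20.7 and 22.0 FPKM and Pecam1 at 54.3 and 44.9 FPKM, were well above it. Blood progenitors are known to express several of these genes, and the part of endothelial cells in the Gimap values was not tested. Of 7 tested endothelial markers 4 were higher and 3 lower, with a median of 0.08. Over all 12, tested or not, 5 were higher and 7 lower. Cuffdiff called 1 of the 7 lower, against 0.373% of all tested genes, Egfl7 at 88.3 and 121 FPKM. With the more cautious error named above, its adjusted p was 1.00 and it was no longer called.

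**Figure D5:**
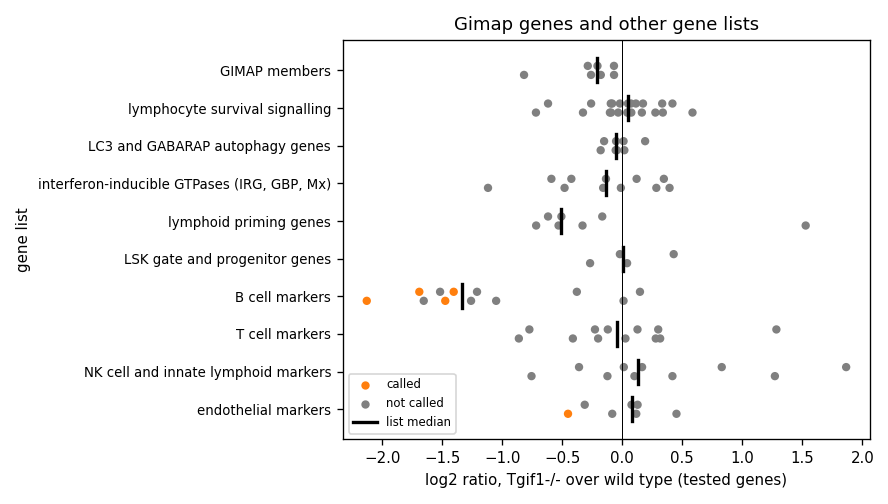
Log2 ratio of each tested gene in 10 lists, the group labelled Tgif1-/- over the wild-type group, with called genes in orange and a bar at each list's median. The Gimap genes have a median of -0.21, between that of B cell markers at -1.33 and that of lymphocyte survival signalling at 0.05.

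Genes of the lymphoid priming programme, which marks the first steps of multipotent progenitors towards lymphocytes, were mostly not testable, with 10 of 18 failed. Over all 18 genes, tested or not, 16 were lower and 2 higher, and of the 10 failed 9 were lower. Il7r is in this list as well as in that of survival signalling. Of the 7 tested, 6 were lower and 1 higher in the group labelled Tgif1-/-, none was called by Cuffdiff, and 4 had an unadjusted p under 0.05, 3 lower and 1 higher, against 5.41% of all tested genes. The higher one, named after its values were seen, was Ikzf3, a lymphoid transcription factor of the Ikaros family, at 1.41 and 0.488 FPKM, a log2 ratio of 1.53 and the largest in size among the tested genes of the list. Dntt, terminal deoxynucleotidyl transferase, had the smallest p at 302 and 437 FPKM, with p = 0.00186 and q = 0.165 by Cuffdiff in the authors' deposited table. Its p and q were thus close to those of Gimap4. The list median was -0.51, and the gate and progenitor list had a median of 0.01 over its 4 tested genes, with Procr at 7.32 and 8.82 FPKM. Whether Gimap4 varies with lymphoid priming from sample to sample was not tested, since the table holds no value per sample.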

How the data were processed

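LSK cell RNA, about 200 ng per the labels' protocols, was sequenced in 6 samples, 3 per group. The submitters' processing notes name TopHat and Cuffdiff, without versions. The 1 deposited table holds, per the file headers, an FPKM value per group computed by the authors, their log2 fold change with wild type on top, their test statistic, which is a score, and their p-value and q-value. The fold change was turned round here. There are no per-sample columns, so the p-values cover the error of the authors' model only, and samples that may be technical repeats cannot be told from animals.

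The deposited status marks 10730 genes as tested and 3143 as failed. Benjamini-Hochberg adjustment over the tested genes gave back the deposited q-values, and a two-sided normal test of the statistic gave back the p-values, both within 0.001. The log2 fold change divided by the statistic was therefore taken as standard error, and 95% intervals were made from it. The calculation was tested on simulated data. The build named in the notes is hg19, a human build, while the identifiers are mouse identifiers. Starts are printed counting from 1. Where a symbol had several lines, the one of highest mean FPKM was used.

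The members and lists were chosen with earlier results of these data known. Named were all members, all genes within 500 kb, Tgif1, fixed defining markers and, per list, up to 4 called genes or else the 2 with the smallest p. A few genes so selected are not reported here. Open reading frames and 50-base words came from GENCODE M21 transcripts (GRCm38) and promoters from RefSeq (GRCm38.p6). Python 3.11.15, pandas 2.3.3, numpy 2.4.6, scipy 1.17.1 and Biopython 1.88 were used. Alternatives were q thresholds of 0.01 and 0.1, pseudocounts of 0.1 and 1, centring on the tested genes' median, a floor on the standard error (the median error within each of 20 expression bins), a minimum of 1 FPKM, and leaving out members.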

Additional observations from a re-analysis of the deposited data

How the results depend on the processing

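The count of called Gimap genes was 0 under both other q thresholds, the error floor, centring and adjustment over genes reaching 1 FPKM in either group. The adjusted p of Gimap4 ran from 0.171 to 1.00 over these, and that of the other tested members was 1.00 wherever they were adjusted. Gimap3, under 1 FPKM, was left out of the last of these. All 8 members stayed below 0 with centring. Pseudocounts of 0.1 and 1, added alike to both groups, can change the size of a ratio but not its side of 0. Gimap4 was -0.67 with a pseudocount of 1 and -0.79 with centring. The family median ran from -0.21 to -0.16 over its alternatives, and the log2 ratio of the summed FPKM from -0.19 to -0.17. In checks added after seeing the data, the error floor left 0 called endothelial markers, and the other lists' counts stayed within 1.5 times. Leaving out replicates was not run, since the table used here holds group values only. No paired analysis was possible because the labels number the samples 1 to 6 without pairs and the table has no column per sample. Depth is unknown, and Gimap3, under 1 FPKM, has the widest interval of the tested members.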
